A study of Mus musculus with 54 samples.

Results

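The response of microglia (MG), the resident macrophages of the brain parenchyma, to systemic lipopolysaccharide (LPS) was measured by bulk RNA-seq in wild-type (WT) mice whose MG had never been depleted. The series held 54 libraries in 18 groups of 3, of which 6 were compared here, chosen by their labels alone. In the LPS group, labelled CTL LPS, WT mice 1, 4 and 6 had been given the vehicle of BLZ945, which depletes MG by blocking CSF1R, and LPS was injected intraperitoneally 8 weeks after the end of that treatment and 12 h before sorting. In the untreated group, WT mice 9, 14 and 15 had received neither BLZ945 nor vehicle, and PBS was injected 12 h before sorting. The groups thus differed in the vehicle gavage as well as in LPS, and effects of the 2 cannot be told apart. None of these 6 mice carried a Cre driver, a reporter or a targeted allele, each library held the sorted MG of 1 mouse, and both sexes were present in both groups. By the levels of Xist and Ddx3y, 1 mouse of each group was female, LPS mouse 1 and untreated mouse 9, and the others were male. In such bulk libraries, fewer cells of a type and less RNA per cell cannot be told apart.

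LPS, the endotoxin of Gram-negative bacteria, is bound by LBP and CD14 and handed to the receptor complex of TLR4 and MD-2. TLR4 signals through the adaptor MyD88 to NF-kappaB, which drives cytokine genes together with their own inhibitors, and through TRIF to interferon regulatory factors and a type I interferon response. An endotoxin given into the abdomen also acts on the brain through cytokines in blood, through vascular and border cells and through adrenal glucocorticoids. MG at rest are known for a set of genes that distinguishes them from other macrophages, among them P2ry12, Tmem119 and Sall1, and inflammatory stimuli are known to lower several of these genes.

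Levels are given as CPM (the count of a gene per 1e6 counts of the library), scaled by the trimmed mean of M values (TMM). In sentences with 3 values per group, these belong to untreated mice 9, 14 and 15 and to LPS mice 1, 4 and 6, in that order. Every fold change is on the log2 scale, LPS against untreated, with its SE and the adjusted p of edgeR's quasi-likelihood test over all genes tested. A gene was called where the adjusted p was under 0.05 and the log2 fold change over 1 in size. The words rose and fell are used for genes with an adjusted p under 0.05, whether or not they were called.

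Total counts were 7497764 to 8992758 in the untreated and 8275509 to 9259710 in the LPS libraries, with 14184 to 14990 genes detected in each. Sums over marker genes are given in CPM of the library total, without TMM scaling. The summed level of 8 microglial markers was 37607 to 39567 CPM before and 9067 to 15233 CPM after LPS, with 6 of the 8 called lower, so the markers of the labelled cell type were present in every library and moved with the treatment. Markers of T and NK cells summed to at most 1 CPM in any library. Some markers of sdCAMs (subdural CNS-associated macrophages), monocytes, neutrophils and B cells also moved with the treatment and are given beside the genes concerned. Oligodendrocyte markers summed to 182 to 192 CPM before and 123 to 145 CPM after LPS, with Cnp and Mog called lower, and erythroid and platelet markers to 22.7 to 54.1 and 6.4 to 11 CPM, with Gp9 called lower. The first principal component held 66.6% of the variance, with the untreated libraries between -61.7 and -58.2 and the LPS libraries of mice 1, 4 and 6 at 91.3, 28.6 and 59.9. The LPS mice were thus spread far more widely than the untreated mice, and mouse 4 lay closest to them.

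LPS was accompanied by a broad change of the MG transcriptome. Of 11789 genes tested, 1057 (8.97%) were called higher and 896 (7.6%) lower, together 16.6%. A further 905 genes rose and 774 fell by less than 2-fold. Levels did not overlap between the 2 groups for 5236 genes (44.4% of those tested), among them 1014 of the genes called higher and 891 of those called lower. The fitted change exceeded 4-fold for 404 of the genes called higher and 283 of those called lower, and 16-fold for 163 and 49. Of the called genes, 45 had no count in any untreated library and 9 none in any LPS library. Genes called higher held 3.71 to 3.9% of all counts in the untreated libraries and 10.8 to 17.7% after LPS, while genes called lower fell from 18.4 to 18.9% of counts to 4.7 to 8.55%. The median log2 fold change over all genes tested was 0.023, against which the medians of gene lists below can be read. Counts of list members called can likewise be read against the 8.97% and 7.6% of all genes. Some list members had hardly any count in 1 group, among them Lbp, Cxcl14, Ass1, Acod1, Marco, Ptges, Mmp8 and Il1r2. They had enough counts only through the other group and so had to differ, and nothing is read from their part in the count of a list. When all 18 WT libraries of both cell types shared 1 fit, whose biological coefficient of variation was 0.57 instead of 0.257, 563 genes were called, of which 552 were among the 1953.

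**Figure D1:**
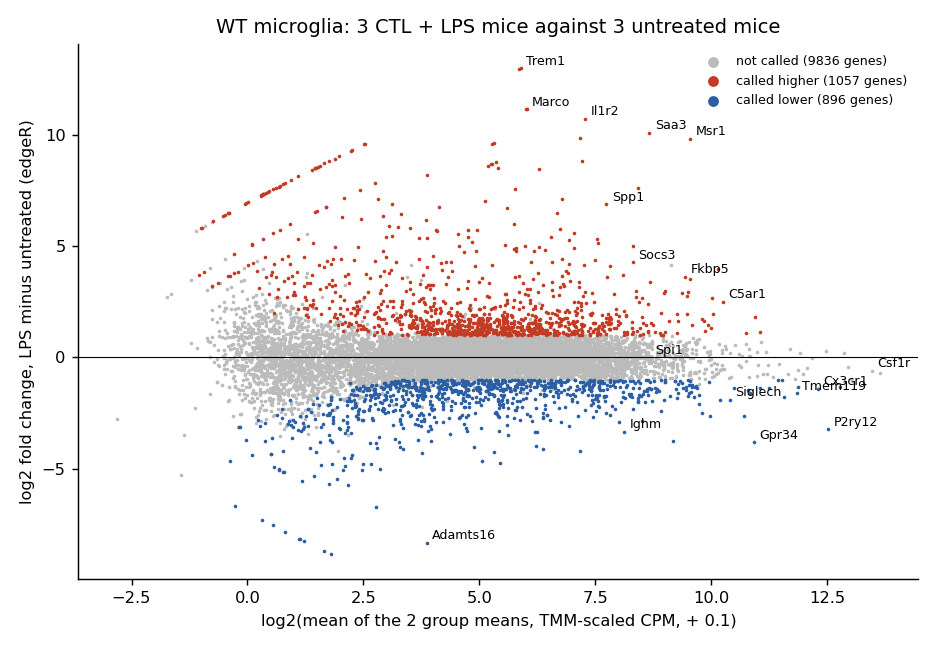
Log2 fold change of each gene tested in WT MG, LPS against untreated (y axis), against log2 of its mean level in CPM plus 0.1 (x axis), each point 1 gene, with called genes coloured by direction. The 1057 genes called higher and the 896 called lower lie above and below the limit of 2-fold, and the most extreme values belong to genes with few or no counts in 1 group.

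The 10 genes that rose with the smallest p, among those at a mean of 10 CPM or more in the higher group and with no overlap, were Adamtsl4, Fkbp5, Gpr65, Cd244a, Sema6b, Il1r2, Sh3pxd2b, C5ar1, Plaur and Id2. No overlap was a condition of this choice and a small p favours a small spread, so neither trait is read as a result. Adamtsl4, a secreted ADAMTS-like matrix protein, was at 2.61, 2.77 and 1.39 CPM in the untreated mice and 188, 207 and 207 CPM after LPS (log2 fold change 6.48, SE 0.24, adjusted p = 7.21e-09). Gpr65, a proton-sensing G protein-coupled receptor, was at 10.4, 7.12 and 8.01 CPM in the untreated mice and 329.7, 209 and 229 CPM after LPS (log2 fold change 4.91, SE 0.23, adjusted p = 7.6e-08). For both genes the lowest LPS library lay many times above the highest untreated library. C5ar1, the receptor of the complement fragment C5a, was well expressed before LPS and was at 369.6, 323 and 406 CPM in the untreated mice and 1990, 2197 and 1988 CPM after LPS (log2 fold change 2.49, SE 0.13, adjusted p = 1.48e-07). Plaur, the urokinase receptor, was at 17.99, 15.96 and 13.6 CPM in the untreated mice and 176, 134 and 139.7 CPM after LPS (log2 fold change 3.24, SE 0.18, adjusted p = 1.92e-07). Id2, an inhibitor of basic helix-loop-helix transcription factors, was at 20.6, 24.4 and 28.8 CPM in the untreated mice and 307, 201 and 272 CPM after LPS (log2 fold change 3.40, SE 0.19, adjusted p = 1.92e-07). The LPS mice lay close together in these 3 genes, mouse 4 included, as the choice by small p favours. Log2 fold changes of Cd244a, a receptor of the SLAM family, Sema6b, a semaphorin, and Sh3pxd2b, an adaptor protein of podosomes, were 5.59 ± 0.27 (SE), 4.90 ± 0.24 (SE) and 5.19 ± 0.27 (SE).

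Among genes that fell, the 10 with the smallest p by the same rule, no overlap included, were Ighm, Plxdc2, Bin1, Siglech, Olfml3, Selenop, Adamts16, Usp35, Inka1 and Itm2b. Siglech, a sialic acid-binding lectin of MG, was at 2225, 2078 and 2081 CPM in the untreated mice and 482, 593 and 634 CPM after LPS (log2 fold change -1.90, SE 0.15, adjusted p = 2.39e-06). Bin1, a membrane-shaping protein, was at 804, 776 and 843 CPM in the untreated mice and 118, 178 and 159.8 CPM after LPS (log2 fold change -2.41, SE 0.17, adjusted p = 1.44e-06). Selenop, the secreted selenium carrier, was at 1720, 1838 and 1952 CPM in the untreated mice and 483, 502 and 466 CPM after LPS (log2 fold change -1.93, SE 0.15, adjusted p = 2.8e-06). The libraries of each group lay within a narrow range for these 3 genes, and no LPS library came near an untreated one, both of which the choice favours. Adamts16, a matrix protease, had 685 counts over the untreated libraries and 2 over the LPS libraries, so that its level was 391-fold lower (95% counting interval 108 to 3239). Ighm, the immunoglobulin mu heavy chain of B cells, was at 543, 515 and 467 CPM in the untreated mice and 36.3, 57.2 and 56.8 CPM after LPS (log2 fold change -3.34, SE 0.20, adjusted p = 3.52e-07). Beside it, the summed level of 10 B cell markers was 488 to 582 CPM before and 50.8 to 79.1 CPM after LPS, with Ighm and Ighd called lower. Cd79b, a chain of the B cell receptor complex, was on the scale of these sums at 33.5, 30.9 and 25.8 CPM before and 13.6, 17 and 18.5 CPM after LPS, and fell with them by less than 2-fold (log2 fold change -0.97, edgeR adjusted p = 0.0141). Its partner Cd79a was at most 0.334 CPM, and Ms4a1 had no count in these 6 libraries. Igkc, Iglc2 and Mzb1 had no count in any of the 36 libraries of the WT and Ccr2-/- tables and so could mark nothing. The part of B cells in the level of Ighm was not tested.

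Receptors and adaptors of LPS sensing moved in both directions. Of 27 tested genes of LPS sensing and Toll-like receptor signalling, 6 were called higher and 5 lower, with a median log2 fold change of 0.09. Among the 6, Lbp had no count before LPS and 22 over the LPS libraries, so that it had to differ. Tlr4, the receptor that recognises LPS, was at 253, 309 and 353 CPM in the untreated mice and 133, 199 and 142 CPM after LPS (log2 fold change -0.95, SE 0.19, adjusted p = 0.00282). Ly96, which encodes MD-2, was at 51.5, 55.8 and 45.9 CPM in the untreated mice and 18.6, 21.2 and 22.1 CPM after LPS (log2 fold change -1.31, SE 0.19, adjusted p = 0.0003). Both components of the LPS receptor complex thus fell, and neither overlapped between the groups. Cd14, the co-receptor, was at 399, 468 and 478 CPM in the untreated mice and 2225, 726 and 1223 CPM after LPS (log2 fold change 1.63, SE 0.32, adjusted p = 0.00398). Tlr2, the receptor of bacterial lipoproteins, was at 271, 281 and 284 CPM in the untreated mice and 2934, 626 and 1774 CPM after LPS (log2 fold change 2.67, SE 0.47, adjusted p = 0.00309). Cd14 and Tlr2 therefore moved opposite to Tlr4. Cd180, a TLR-like receptor, and Tlr9, a receptor of CpG DNA, fell with log2 fold changes of -2.51 ± 0.25 (SE) and -1.45 ± 0.45 (SE), whereas Tlr7, a receptor of single-stranded RNA, rose by 1.48 ± 0.16 (SE). Irak3, an inhibitory kinase of the same pathway, was at 11.5, 9.76 and 9.74 CPM in the untreated mice and 73.99, 19.3 and 41.6 CPM after LPS (log2 fold change 2.12, SE 0.40, adjusted p = 0.00212). Myd88 rose by less than 2-fold (log2 fold change 0.50, SE 0.15, adjusted p = 0.025), and its adjusted p was 0.057 to 0.0847 when untreated mouse 9, 14 or 15 or LPS mouse 1 or 6 was left out. Without mouse 1 or without mouse 6, 3 of the list's genes were called lower, and 4 were called higher without mouse 1.

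Several genes of NF-kappaB inhibitors rose, while 1 subunit gene fell. Of 19 genes tested, 5 were called higher and 1 lower (median log2 fold change 0.54). Nfkbia encodes IkappaBalpha, which holds NF-kappaB in the cytoplasm and is itself an NF-kappaB target, and it was at 121, 89.7 and 91.1 CPM in the untreated mice and 796, 479 and 614 CPM after LPS (log2 fold change 2.65, SE 0.20, adjusted p = 1.93e-06). The atypical inhibitor genes Nfkbiz and Bcl3 were at 23.8, 27.4 and 15.9 CPM in the untreated mice and 358, 59.5 and 196 CPM after LPS and at 3.85, 5.14 and 4.64 CPM in the untreated mice and 61.1, 45.5 and 42.3 CPM after LPS respectively, with log2 fold changes of 3.20 ± 0.60 (SE) and 3.44 ± 0.28 (SE). In all 3 genes the groups were fully separated. Nfkbid rose by less than 2-fold, and the inhibitor genes Nfkbib, Nfkbie, Tnip1 and Tnip3 did not pass (adjusted p = 0.115 to 0.445). Nfkb1, the p50 subunit, was the gene called lower, at 219, 229 and 234 CPM in the untreated mice and 93, 99.1 and 111 CPM after LPS (log2 fold change -1.17, SE 0.18, adjusted p = 0.000492). Ikbke, a noncanonical IkappaB kinase, had 1 or 2 counts per untreated library and was at 183, 11.4 and 49.6 CPM after LPS (log2 fold change 8.78, SE 1.42, adjusted p = 0.00324).

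Promoters of 3 genes that rose are shown because each carries the letters of a motif that belongs to one of the arms described here, NF-kappaB, interferon and STAT. They span 250 bases before to 50 after the RefSeq start in GRCm38.p6, read 5′ to 3′ on the strand of the gene, with motif matches in capitals. Nfkbia (chr12:55492598-55492897, minus strand) holds 3 matches to GGGNNTTTC on either strand. Isg15 (chr4:156200769-156201068, minus strand) holds 3 overlapping matches to the interferon-stimulated response element letters GAAANNGAA. Il1r2 (chr1:40085843-40086142, plus strand) holds 1 match to the STAT letters TTCNNNGAA, which read the same on both strands.
Nfkbia: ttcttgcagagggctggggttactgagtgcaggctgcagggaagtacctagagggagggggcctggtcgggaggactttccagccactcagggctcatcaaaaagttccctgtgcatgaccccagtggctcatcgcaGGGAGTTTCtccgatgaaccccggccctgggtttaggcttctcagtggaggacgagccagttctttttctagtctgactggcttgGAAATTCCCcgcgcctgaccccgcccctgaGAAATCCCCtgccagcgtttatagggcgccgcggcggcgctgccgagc
Isg15: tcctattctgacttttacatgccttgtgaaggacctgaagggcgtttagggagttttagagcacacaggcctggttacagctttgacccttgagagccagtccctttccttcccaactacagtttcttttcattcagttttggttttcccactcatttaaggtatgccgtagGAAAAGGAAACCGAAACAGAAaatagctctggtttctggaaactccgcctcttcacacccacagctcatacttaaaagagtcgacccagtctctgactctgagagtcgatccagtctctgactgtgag
Il1r2: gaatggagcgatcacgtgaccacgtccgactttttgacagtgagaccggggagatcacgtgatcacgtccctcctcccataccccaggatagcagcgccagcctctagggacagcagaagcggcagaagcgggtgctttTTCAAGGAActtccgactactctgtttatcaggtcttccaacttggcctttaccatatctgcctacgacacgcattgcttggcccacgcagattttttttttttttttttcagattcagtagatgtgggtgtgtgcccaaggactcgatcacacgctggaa

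Over the 9332 tested genes with a RefSeq promoter, these letters occurred in 4.43% of promoters for NF-kappaB, 7.34% for the interferon element and 6.93% for STAT. Because a promoter was matched for 79.1% of the genes called higher and 76.3% of those called lower, under the 80% set as a minimum, comparing motif shares between called genes and the rest was void. A match is a description of the sequence, and no binding was measured here.

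Most of the tested inhibitors of inflammatory signalling rose. Of 20 tested negative feedback regulators, 13 were called higher and 0 lower, with a median log2 fold change of 1.89. Socs3, which blocks cytokine receptors that signal through STAT3, was at 32.97, 28.1 and 32.5 CPM in the untreated mice and 878, 421 and 502 CPM after LPS (log2 fold change 4.27, SE 0.26, adjusted p = 4.79e-07). Il1r2, the decoy receptor that binds interleukin-1 without signalling, was at 0, 0.132 and 0.348 CPM in the untreated mice and 272, 408 and 252 CPM after LPS (log2 fold change 10.72, SE 0.48, adjusted p = 9.23e-08). Dusp1, a phosphatase of MAP kinases, was at 6.59, 13.98 and 6.73 CPM in the untreated mice and 575, 239.9 and 274 CPM after LPS (log2 fold change 5.32, SE 0.43, adjusted p = 1.81e-05). Each of these was low in every untreated library and high in every LPS library. Il1rn, the interleukin-1 receptor antagonist, was at 0.962, 0 and 0 CPM in the untreated mice and 692, 24.3 and 151 CPM after LPS (log2 fold change 9.85, SE 1.90, adjusted p = 0.00944), so that its level after LPS differed widely between mice. Cd274, which encodes the checkpoint ligand PD-L1, and Tnfaip3, the deubiquitinase A20, were at 14.8, 12.9 and 18.8 CPM in the untreated mice and 164, 38.1 and 73.5 CPM after LPS and at 98.5, 123 and 117 CPM in the untreated mice and 678, 173 and 361 CPM after LPS, with log2 fold changes of 2.56 ± 0.49 (SE) and 1.84 ± 0.44 (SE). Cyld, Pias1, Zfp36, Zfp36l1, Dusp2 and Socs1 did not pass. Il10ra, a subunit of the interleukin-10 receptor, fell by less than 2-fold (log2 fold change -0.74, SE 0.19, adjusted p = 0.00953), while Il10 itself was below the low-count filter.

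Classical cytokine genes were less uniform at 12 h. Of 17 tested cytokine genes, 3 were called higher and 2 lower (median 0.41), and 8 of the 25 listed had too few counts to be tested. Il1b, the precursor of interleukin-1beta, was at 2.61, 6.07 and 3.71 CPM in the untreated mice and 95.03, 22.9 and 99.7 CPM after LPS (log2 fold change 4.13, SE 1.04, adjusted p = 0.0222), and this call was lost without untreated mouse 9, 14 or 15 or LPS mouse 1, with an adjusted p of 0.0608 to 0.0829. Tnf was at 3.16, 3.43 and 4.76 CPM in the untreated mice and 181, 42.1 and 146 CPM after LPS (log2 fold change 5.01, SE 0.75, adjusted p = 0.00186). Il1a was at 117, 152 and 138 CPM in the untreated mice and 211, 104 and 242 CPM after LPS (log2 fold change 0.45, SE 0.37, adjusted p = 0.39). Tnf was thus separated between the groups, whereas Il1a overlapped. Il6, another product of activated macrophages, was at 13.3, 19.1 and 13.3 CPM in the untreated mice and 23.7, 5.61 and 14.4 CPM after LPS (log2 fold change -0.065, SE 0.47, adjusted p = 0.934). Il18, processed by the inflammasome, was at 36.95, 39.3 and 36.7 CPM in the untreated mice and 52.6, 58.7 and 39.5 CPM after LPS (log2 fold change 0.42, SE 0.19, adjusted p = 0.116). Il15, a cytokine that sustains NK cells, fell (log2 fold change -1.82, SE 0.29, adjusted p = 0.000723), and Tnfsf9, a ligand of the TNF family, rose (log2 fold change 2.55, SE 0.46, adjusted p = 0.00141). Il12b, a subunit of interleukin-12, reached 21.8, 3.85 and 47.7 CPM after LPS but 6.46 CPM in untreated mouse 9, and did not pass (log2 fold change 3.49, SE 1.55, adjusted p = 0.136). Il12b passed without untreated mouse 9 (edgeR adjusted p = 0.038) and with sex as a covariate (edgeR adjusted p = 0.0443). Without mouse 4, 5 cytokine genes were called higher and 4 lower, and 2 were called higher without mouse 1.

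Most chemokine genes that passed rose, with large differences between the LPS mice. Of 17 tested, 7 were called higher and 2 lower (median 3.67). Ccl2, which attracts monocytes through CCR2, was at 6.46, 3.30 and 1.97 CPM in the untreated mice and 209, 6.42 and 104 CPM after LPS (log2 fold change 4.79, SE 1.38, adjusted p = 0.0403). Ccl3, a ligand of CCR1, was at 25.4, 10.7 and 11.9 CPM in the untreated mice and 374, 22.6 and 215 CPM after LPS (log2 fold change 3.67, SE 1.04, adjusted p = 0.036). Ccl5, which attracts T cells and monocytes, was at 3.71, 0.791 and 0.348 CPM in the untreated mice and 417, 45.2 and 193 CPM after LPS (log2 fold change 7.12, SE 1.23, adjusted p = 0.00563). In these genes mouse 4 was the lowest LPS library, and for Ccl2 and Ccl3 it lay just below untreated mouse 9. Cxcl9, an interferon gamma-induced ligand of CXCR3, was at 0.412, 0.527 and 0 CPM in the untreated mice and 15.1, 3.15 and 11.7 CPM after LPS (log2 fold change 4.98, SE 0.86, adjusted p = 0.00129), and Cxcl16 rose as well (log2 fold change 1.38, SE 0.34, adjusted p = 0.0112). Cxcl10, another ligand of CXCR3, was at 28.02, 0.923 and 1.39 CPM in the untreated mice and 73.03, 5.14 and 59.6 CPM after LPS (log2 fold change 2.20, SE 1.48, adjusted p = 0.313). Cxcl13, which attracts B cells, was at 12.9, 0 and 0 CPM in the untreated mice and 26.5, 3.97 and 14.4 CPM after LPS (log2 fold change 1.83, SE 1.37, adjusted p = 0.364). For Cxcl10 and Cxcl13 untreated mouse 9 also exceeded LPS mouse 4, and the groups overlapped. Cxcl13 passed without untreated mouse 9 (edgeR adjusted p = 0.00527), where untreated mice 14 and 15 had no count of it. Ccl6 and Ccl24 were called lower (-1.09 ± 0.15 (SE) and -3.23 ± 1.12 (SE)). Ccl12, Ccl7 and Ccl4 had log2 fold changes of 4.17 ± 1.31 (SE), 4.14 ± 1.37 (SE) and 2.44 ± 0.93 (SE) and did not pass (edgeR adjusted p = 0.0547, 0.0545 and 0.0917). By DESeq2 11 chemokine genes were called higher, and 12 in the edgeR fit of WT and Ccr2-/- MG together. The number called higher was 12 without mouse 4, 5 without mouse 1, 5 without mouse 6 and 4 without untreated mouse 14, and the number called lower was 0 without untreated mouse 9 and 1 without any other of the 6 mice. Calls of Ccl2 and Ccl3 were lost when mouse 1, 6, 9, 14 or 15 was left out, with adjusted p of 0.08 to 0.123 and of 0.0654 to 0.121.

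**Figure D2:**
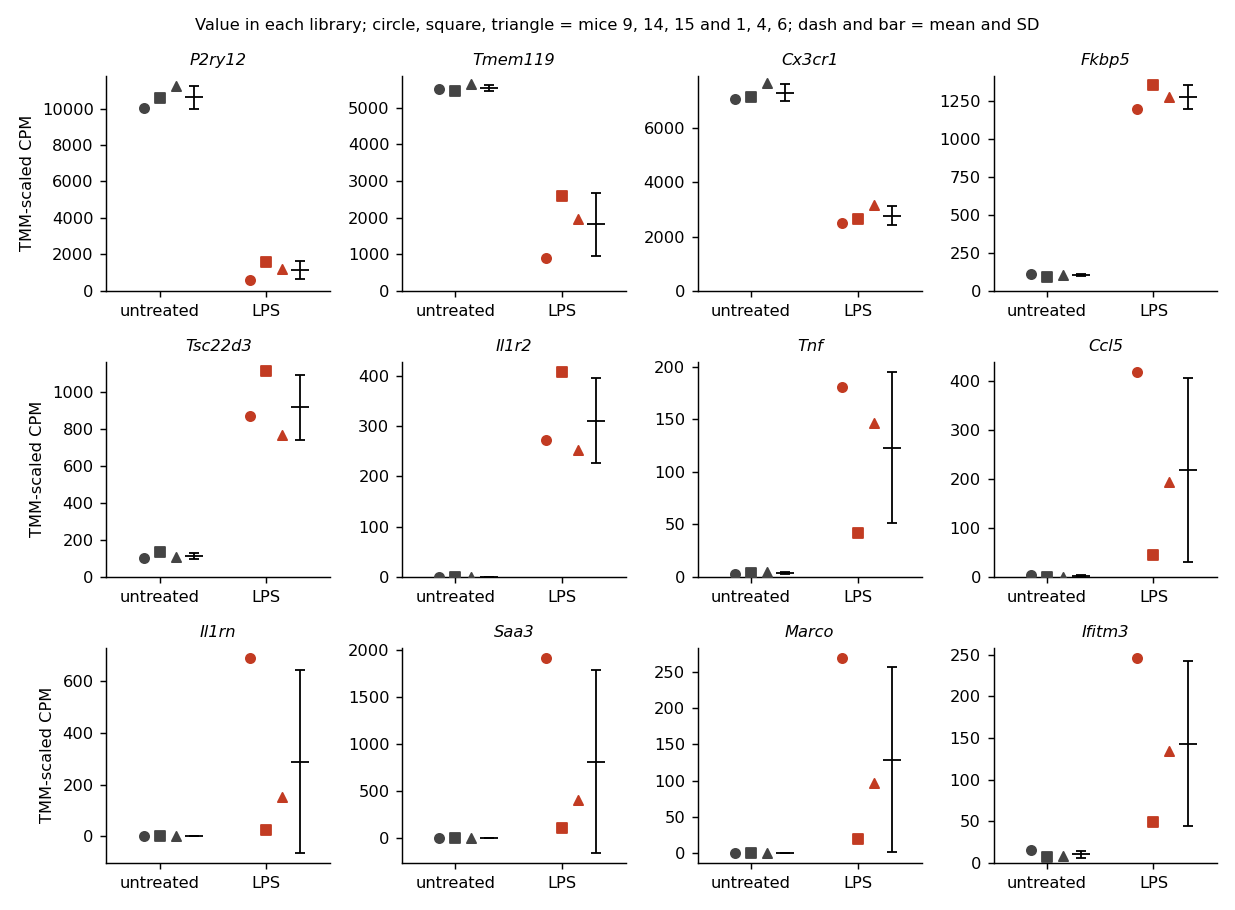
TMM-scaled CPM (y axes, linear) of 12 genes in each WT MG library, with mice 9 and 1 as circles, 14 and 4 as squares and 15 and 6 as triangles, and a dash and bar for the mean and SD of the 3 libraries of a group. Fkbp5 shows LPS mice close together, whereas Saa3 spans 108 to 1918 CPM after LPS.

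Receptors for chemoattractants changed in both directions. Of 13 tested chemokine and formyl peptide receptor genes, 7 were called higher and 2 lower (median 1.30). Ccr7, Cxcr2 and Fpr2 had no count before LPS and Cxcr3 none after it. These 4 had enough counts only through the group where they were high and so had to differ, and nothing is read from this count and median. Fpr1, a receptor of bacterial formyl peptides, had 1 count over the untreated libraries and 3635 over the LPS libraries, a ratio of 3180 (95% counting interval 570 to 125655), and its call was lost without untreated mouse 15 (adjusted p = 0.063). Fpr2, of the same family, was at 18.6, 0.934 and 8.42 CPM after LPS and at 0 before, so that it was at least 25-fold higher, measured against a floor of 3 counts per untreated library. Ccr1, a receptor of Ccl3 and Ccl5, was at 16.6, 16.1 and 9.05 CPM in the untreated mice and 147, 27.9 and 75.1 CPM after LPS (log2 fold change 2.58, SE 0.53, adjusted p = 0.00607). Cxcr2, a receptor on neutrophils, was likewise at 0 before LPS and at 11, 2.80 and 3.37 CPM after it, at least 15.3-fold higher. Cx3cr1, the fractalkine receptor by which MG sense neurons, was at 7089, 7157 and 7670 CPM in the untreated mice and 2501, 2634 and 3175 CPM after LPS (log2 fold change -1.40, SE 0.13, adjusted p = 1.38e-05), and Cxcr3 had no count after LPS and was at least 8-fold lower.

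Of 21 secreted acute phase and antimicrobial genes, 12 had too few counts to be tested. Of the 9 tested, 7 were called higher and 1 lower, with a median of 6.50 as fitted and 3.77 when genes without a count in 1 group were set to their bound. Members such as S100a8 and Lcn2 had enough counts only through the LPS libraries and so had to differ, and nothing is read from this count and median. Saa3, a serum amyloid A protein, was at 1.10, 0.923 and 0.232 CPM in the untreated mice and 1918, 108 and 405 CPM after LPS (log2 fold change 10.09, SE 1.49, adjusted p = 0.00321), a value uncertain to the extent that reads are shared with paralogs. Lcn2, the iron-binding protein lipocalin-2, had 2 counts over the untreated libraries and 2143 over the LPS libraries, a ratio of 938 (95% counting interval 259 to 7746). S100a8, a calcium-binding protein abundant in neutrophils, was at 0 before and at 11.96, 0.817 and 2.36 CPM after LPS, at least 13.6-fold higher. C3, the central complement component, was at 2.20, 0.527 and 0 CPM in the untreated mice and 36.3, 6.19 and 9.54 CPM after LPS (log2 fold change 4.30, SE 1.02, adjusted p = 0.0126), with an adjusted p of 0.0586 without untreated mouse 14. Ceruloplasmin (Cp) was at 4.12, 5.80 and 5.57 CPM in the untreated mice and 301, 22.1 and 97.5 CPM after LPS (log2 fold change 4.76, SE 1.03, adjusted p = 0.0133). Mouse 1 was the highest and mouse 4 the lowest LPS library in Saa3, S100a8 and Cp. Mpeg1, a pore-forming protein of macrophages, was the gene called lower (log2 fold change -1.39, SE 0.21, adjusted p = 0.00048). Beside these genes, 10 neutrophil markers summed to at most 0.891 CPM before and 12.3 to 232 CPM after LPS, with S100a8, Lcn2, Cxcr2 and Mmp8 called higher. Lcn2 itself made up 201, 8.34 and 25.4 CPM of these sums in LPS mice 1, 4 and 6. Mmp8 was at 7.88, 0.242 and 0 CPM after LPS, and Ngp, Camp and Ltf at most 0.117 CPM. S100a9 and Retnlg had no count in these 6 libraries. Ly6g had no count in any of the 36 libraries of the WT and Ccr2-/- tables and so could mark nothing. Monocyte markers summed to 8.4 to 12.5 CPM before and 29.8 to 90.5 CPM after LPS, with Vcan and Ms4a4c called higher, Ly6c2 at most 0.756 CPM and Chil3 at most 0.846 CPM. Ms4a4c, also a member of the interferon-stimulated list, made up 75.6, 22.8 and 51.5 CPM of the sums in LPS mice 1, 4 and 6. Ccr2 did not pass (log2 fold change -1.01, edgeR adjusted p = 0.279). The part of such cells in these genes was not tested.

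Interferon-stimulated genes rose in part. Of 46 tested, 21 were called higher, 10 more rose by less than 2-fold and 0 fell, with a median of 1.01. Irf7, the transcription factor that amplifies type I interferon, was at 22.1, 18.7 and 12.1 CPM in the untreated mice and 159, 54.8 and 84.4 CPM after LPS (log2 fold change 2.50, SE 0.36, adjusted p = 0.000591). Ifitm3, a membrane protein that restricts virus entry, was at 15.5, 7.38 and 8.01 CPM in the untreated mice and 246, 48.6 and 134 CPM after LPS (log2 fold change 3.80, SE 0.58, adjusted p = 0.0016). Isg15, the ubiquitin-like modifier whose promoter is printed above, was at 4.81, 3.03 and 3.25 CPM in the untreated mice and 25.7, 5.14 and 9.77 CPM after LPS (log2 fold change 1.88, SE 0.50, adjusted p = 0.013). Its call was lost without mouse 1, 14 or 15, with an adjusted p of 0.0544 to 0.0725. Oasl2, of the oligoadenylate synthetase family, was at 34.2, 7.65 and 8.47 CPM in the untreated mice and 196, 69.4 and 79.9 CPM after LPS (log2 fold change 2.79, SE 0.64, adjusted p = 0.0129). Ifi204, Ifi207 and Ifi209, members of a family of DNA-binding proteins, had log2 fold changes of 3.79 ± 0.34 (SE), 4.29 ± 0.54 (SE) and 2.83 ± 0.35 (SE), and Zbp1, a sensor of Z-form nucleic acids, of 4.09 ± 0.65 (SE). By contrast, Ifit3 was at 33.1, 12.1 and 14.7 CPM in the untreated mice and 23.1, 7.47 and 22.8 CPM after LPS (log2 fold change -0.17, SE 0.46, adjusted p = 0.818), and Ifit1, Ifit2, Ifit3b, Mx1, Mx2, Oas2, Oas3 and Rsad2 did not pass either. Stat2, which carries the interferon signal, was called higher (1.800 ± 0.24 (SE)). The number called higher in the list was 15 without mouse 1 or untreated mouse 14 and 27 without mouse 4. It was 29 without untreated mouse 9, the most with any library left out, and 11 in the fit of all 18 WT libraries.

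GTPases and transcription factors linked to interferon also rose in part. Of 16 tested guanylate-binding proteins and immunity-related GTPases, 4 were called higher and 0 lower (median 1.13), with 1 called without mouse 1 and 9 without mouse 4. Gbp2 was at 17.03, 13.8 and 9.28 CPM in the untreated mice and 191, 24.3 and 91.4 CPM after LPS (log2 fold change 2.94, SE 0.72, adjusted p = 0.0175), and its call was lost without mouse 1, 14 or 15 (adjusted p = 0.0547 to 0.0625). Gbp5 was at 8.10, 15.4 and 10.4 CPM in the untreated mice and 85.6, 10.04 and 22.6 CPM after LPS (log2 fold change 1.800, SE 0.77, adjusted p = 0.111). Of 18 interferon regulatory factors, STATs and JAKs, 5 were called higher and 0 lower (median 0.34), 3 of them without mouse 1. Stat3, the transducer of interleukin-6 and interleukin-10 signals, was at 238, 227 and 255 CPM in the untreated mice and 575, 544 and 532 CPM after LPS (log2 fold change 1.20, SE 0.12, adjusted p = 2.43e-05). Irf1 was at 89.97, 85.2 and 106 CPM in the untreated mice and 285, 109 and 221 CPM after LPS (log2 fold change 1.12, SE 0.34, adjusted p = 0.0296), with an adjusted p of 0.0569 to 0.111 without mouse 1, 6, 9, 14 or 15. Irf8, which MG need for their development, fell by less than 2-fold (log2 fold change -0.56, SE 0.13, adjusted p = 0.00708).

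Genes of antigen presentation were called in both directions. Of 24 genes of MHC class I presentation, 1 was called higher and 1 lower (4.17% each, against 8.97% and 7.6% of all genes, median 0.17), while 7 more rose by less than 2-fold, and 6 were called higher without mouse 4. B2m, the light chain of MHC class I, was at 3178, 2624 and 2803 CPM in the untreated mice and 4363, 3297 and 3540 CPM after LPS (log2 fold change 0.38, SE 0.14, adjusted p = 0.0493), and Tap1, a peptide transporter, at 88.6, 79.9 and 80.6 CPM in the untreated mice and 242, 85.9 and 156 CPM after LPS (log2 fold change 0.96, SE 0.28, adjusted p = 0.0233). Both lost significance when mouse 1, 6, 9, 14 or 15 was left out, with adjusted p of 0.0535 to 0.18 for B2m and of 0.0557 to 0.0751 for Tap1. Psmb8, a subunit of the immunoproteasome, was at 103, 87.7 and 72.4 CPM in the untreated mice and 87.02, 50.2 and 79.02 CPM after LPS (log2 fold change -0.28, SE 0.21, adjusted p = 0.34). Of 13 tested genes of MHC class II presentation, 3 were called higher (23.1%) and 2 lower (15.4%), with a median of -0.35, and 1 was called lower without mouse 1 or 9. Cd74, the invariant chain, was at 49.7, 28.8 and 27.7 CPM in the untreated mice and 324, 174 and 328 CPM after LPS (log2 fold change 2.96, SE 0.31, adjusted p = 5.87e-05). H2-Aa and H2-Ab1, which encode a class II heterodimer, were at 3.16, 0.791 and 2.90 CPM in the untreated mice and 2.56, 0 and 2.81 CPM after LPS and at 19.2, 6.99 and 7.77 CPM in the untreated mice and 17.1, 5.84 and 7.75 CPM after LPS, and neither passed (adjusted p = 0.818 and 0.843). Untreated mouse 9 was the highest untreated library for both.

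**Figure D3:**
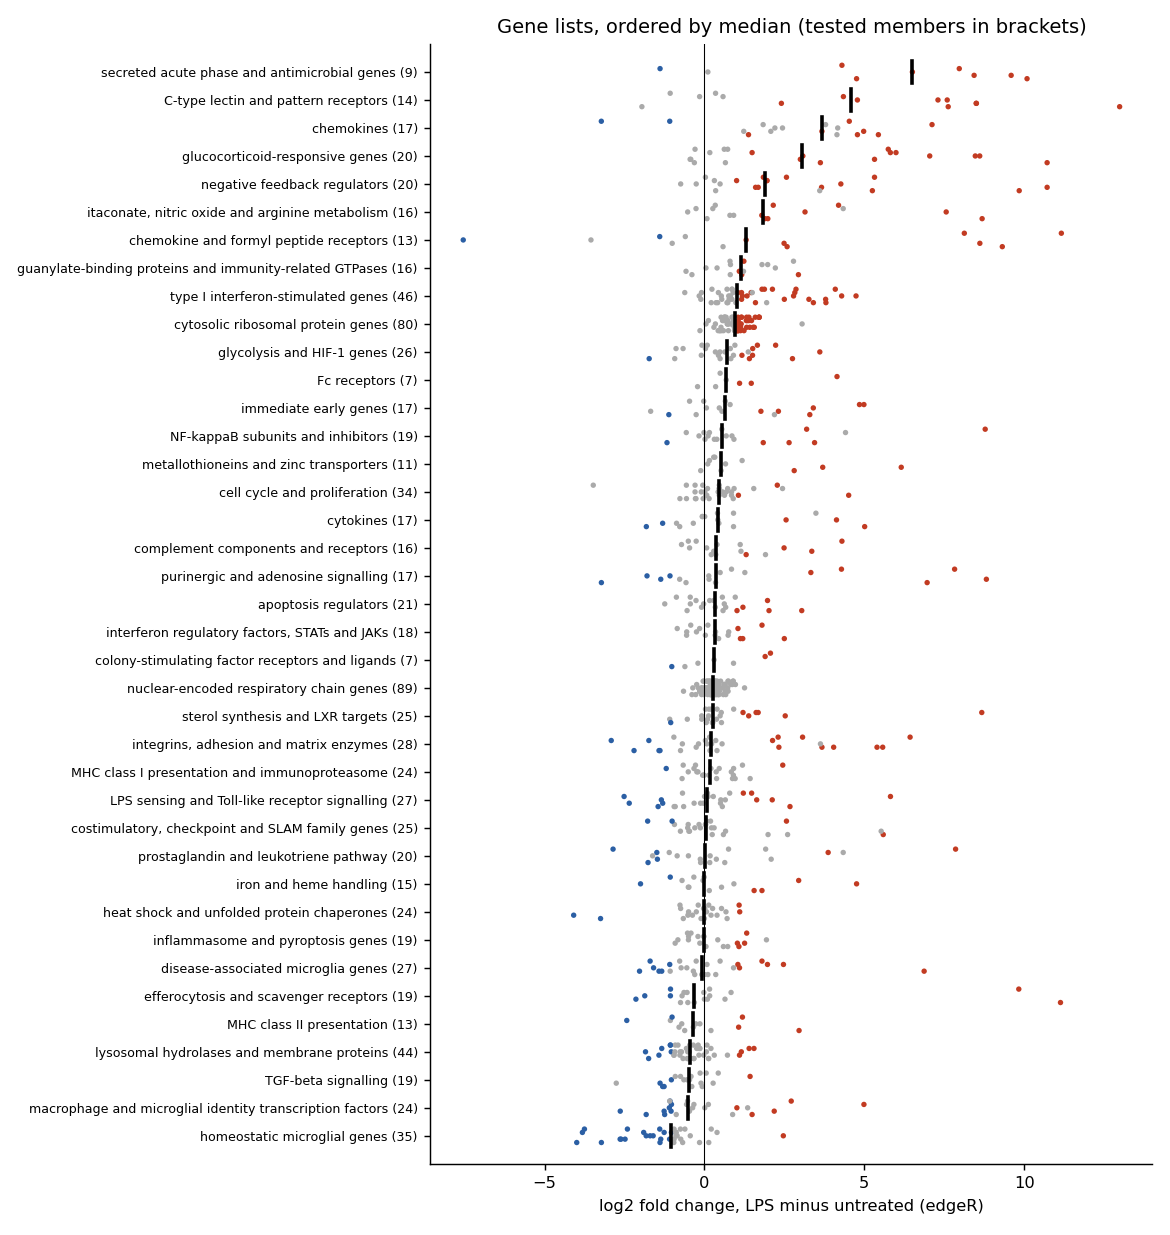
Log2 fold changes of the tested members of the gene lists in WT MG, LPS against untreated, each point 1 gene and each row 1 list, coloured where called, with a black line at the list median. Feedback regulators (median 1.89) and glucocorticoid-responsive genes (3.04) lie to the right, and homeostatic microglial genes (-1.04) to the left. Nothing is read from the acute phase median (6.50), because some members had enough counts only through the LPS libraries.

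The genes that mark MG at rest fell together. Of 35 tested homeostatic microglial genes, 18 were called lower, 11 more fell by less than 2-fold, and 1, Gpr84, was called higher, with a median of -1.04. P2ry12, the ADP receptor that guides MG processes, was at 10010, 10590 and 11260 CPM in the untreated mice and 589, 1593 and 1228 CPM after LPS (log2 fold change -3.22, SE 0.30, adjusted p = 2.72e-05). Tmem119, a transmembrane protein used to identify MG, was at 5517, 5472 and 5636 CPM in the untreated mice and 904, 2599 and 1962 CPM after LPS (log2 fold change -1.60, SE 0.30, adjusted p = 0.00292). P2ry13, another receptor of ADP, was at 3140, 2933 and 3085 CPM in the untreated mice and 842, 1423 and 1287 CPM after LPS (log2 fold change -1.37, SE 0.18, adjusted p = 0.000154). All 3 remained expressed in every LPS library at a fraction of the untreated level. Gpr34, a receptor of lysophosphatidylserine, was at 3656, 3514 and 3734 CPM in the untreated mice and 110, 346 and 318 CPM after LPS (log2 fold change -3.82, SE 0.44, adjusted p = 0.000329). Trem2, a lipid-sensing receptor, was at 1287, 1343 and 1278 CPM in the untreated mice and 255, 519 and 429 CPM after LPS (log2 fold change -1.70, SE 0.21, adjusted p = 0.000127). Slc2a5, the fructose transporter, was at 1103, 987 and 1159 CPM in the untreated mice and 12.5, 161 and 67.8 CPM after LPS (log2 fold change -3.75, SE 0.84, adjusted p = 0.0149). In Slc2a5 and Gpr34 the LPS mice differed from each other by several-fold, with mouse 1 the lowest. Upk1b, Crybb1, Olfml3 and Adgrg1 had log2 fold changes of -3.995 ± 0.39 (SE), -2.64 ± 0.26 (SE), -2.61 ± 0.20 (SE) and -2.48 ± 0.39 (SE).

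Not every gene typical of MG fell to that extent. Sparc, a matricellular protein, was at 3948, 3728 and 4389 CPM in the untreated mice and 2404, 2359 and 2456 CPM after LPS (log2 fold change -0.74, SE 0.12, adjusted p = 0.000803). Csf1r, the receptor on which MG survival depends, fell by less than 2-fold as well (log2 fold change -0.61, SE 0.12, adjusted p = 0.00212). C1qa, a chain of complement C1q, was at 3942, 3455 and 3332 CPM in the untreated mice and 3694, 4626 and 4104 CPM after LPS (log2 fold change 0.21, SE 0.12, adjusted p = 0.225), and P2ry6, Cd33, Rhob and Ltc4s did not pass either. Selplg, the P-selectin ligand, was called lower (log2 fold change -1.39, SE 0.40, adjusted p = 0.0276), but not without mouse 6, 9, 14 or 15 (adjusted p = 0.0599 to 0.0815). Gpr84, a receptor of medium-chain fatty acids, was at 117, 104 and 97.3 CPM in the untreated mice and 847, 267 and 648 CPM after LPS (log2 fold change 2.47, SE 0.36, adjusted p = 0.000888). Beside the loss of microglial markers, 10 markers of sdCAMs summed to 600 to 623 CPM before and 1002 to 1298 CPM after LPS. Nearly all of these sums was the scavenger receptor gene Stab1, at 590, 587 and 608 CPM before and 1124, 1275 and 989 CPM after LPS on that scale. Pf4, Lyve1, Cd163, Ms4a7, Folr2, Cbr2 and Clec12a were at most 3.02 CPM in any library. With TMM scaling, Stab1 was at 607, 608 and 634 CPM in the untreated mice and 1111, 1232 and 948 CPM after LPS (log2 fold change 0.83, SE 0.13, adjusted p = 0.000553). F13a1, the coagulation factor XIII A chain, rose from 0, 0.264 and 0.116 CPM to 14.8, 10.98 and 6.06 CPM, and Mrc1, the mannose receptor, was called lower. Whether border macrophages took part in these values was not tested.

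Transcription factors of macrophage identity went both ways. Of 24 tested, 5 were called higher and 8 lower (median -0.50). Sall1, which maintains MG identity, was at 863, 990.2 and 1017 CPM in the untreated mice and 178, 291 and 342 CPM after LPS (log2 fold change -1.82, SE 0.20, adjusted p = 4.01e-05). Mef2c, a MADS-box factor active in MG, was at 1015, 1124 and 1071 CPM in the untreated mice and 339, 526 and 489 CPM after LPS (log2 fold change -1.25, SE 0.16, adjusted p = 0.000173). Cebpb, which drives inflammatory and acute phase genes, was at 91.9, 83.6 and 87.8 CPM in the untreated mice and 720.5, 477 and 530.5 CPM after LPS (log2 fold change 2.71, SE 0.17, adjusted p = 4.29e-07). Klf4 was at 2.88, 0.923 and 0.580 CPM in the untreated mice and 42.9, 44.02 and 50.2 CPM after LPS (log2 fold change 4.99, SE 0.45, adjusted p = 1.02e-05). Sall1 and Mef2c thus fell while Cebpb and Klf4 rose in all LPS libraries. Spi1, which encodes the lineage factor PU.1, was at 472, 388 and 356 CPM in the untreated mice and 475, 343 and 406 CPM after LPS (log2 fold change 0.010, SE 0.15, adjusted p = 0.971), and thus did not pass. Without mouse 1, 4 were called lower, and 5 without mouse 6.

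Of 27 tested genes of disease-associated MG, a state described in neurodegeneration, 6 were called higher and 6 lower (median -0.09). Apoe, the lipid carrier, was at 193, 132 and 166 CPM in the untreated mice and 179.7, 160.3 and 123 CPM after LPS (log2 fold change -0.085, SE 0.17, adjusted p = 0.75). Axl, a receptor tyrosine kinase, was at 53.02, 22.7 and 26.2 CPM in the untreated mice and 44.5, 24.1 and 33 CPM after LPS (log2 fold change -0.002, SE 0.30, adjusted p = 0.997). Spp1, which encodes osteopontin, was at 4.12, 1.85 and 4.76 CPM in the untreated mice and 649, 254 and 365 CPM after LPS (log2 fold change 6.87, SE 0.43, adjusted p = 2.62e-06). Cst7, an inhibitor of cathepsins, and Cd63, a tetraspanin of endosomes, rose (2.47 ± 0.22 (SE) and 1.97 ± 0.13 (SE)), whereas Cd9 and Trem2 fell (-1.59 ± 0.15 (SE) and -1.70 ± 0.21 (SE)). The list thus held members moving in opposite directions.

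Genes known to respond to glucocorticoids rose strongly in most cases. Of 20 tested, 12 were called higher and 0 lower, with a median of 3.04. Fkbp5, a co-chaperone of the glucocorticoid receptor and a sensitive target of it, was at 111, 94.96 and 105 CPM in the untreated mice and 1200, 1355 and 1279 CPM after LPS (log2 fold change 3.63, SE 0.14, adjusted p = 7.21e-09). Tsc22d3, which encodes GILZ, was at 102, 134 and 107 CPM in the untreated mice and 871, 1111 and 767 CPM after LPS (log2 fold change 2.999, SE 0.18, adjusted p = 2.8e-07). Zbtb16, a zinc finger factor, was at 0, 0.659 and 0.580 CPM in the untreated mice and 107, 191 and 170.4 CPM after LPS (log2 fold change 8.47, SE 0.46, adjusted p = 2.8e-07). In all 3 genes the LPS mice differed by less than 2-fold, and mouse 4 was the highest. Klf9, Hif3a, Map3k6 and Slc10a6 had log2 fold changes of 5.99 ± 0.44 (SE), 8.61 ± 0.53 (SE), 7.05 ± 0.74 (SE) and 5.82 ± 0.62 (SE). Ddit4, an inhibitor of mTORC1, was at 3.85, 5.80 and 2.09 CPM in the untreated mice and 228, 279 and 120.4 CPM after LPS (log2 fold change 5.75, SE 0.42, adjusted p = 5.44e-06), and Per1, a clock gene, at 23.4, 13.4 and 6.38 CPM in the untreated mice and 118, 126 and 119 CPM after LPS (log2 fold change 3.08, SE 0.34, adjusted p = 7.69e-05). The receptor gene itself, Nr3c1, was at 275, 328 and 312 CPM in the untreated mice and 336, 169 and 241 CPM after LPS and did not pass (log2 fold change -0.29, SE 0.20, adjusted p = 0.299), nor did Sgk1, Sgk3, Tgm2, Errfi1, Arrdc2, Arrdc3 and Mertk. Il1r2, Dusp1 and Cebpd stand in other lists too.

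Of 17 tested immediate early genes, which respond within minutes and can also respond to cell isolation, 6 were called higher and 1 lower (median 0.65). Fos was at 0.962, 4.88 and 4.76 CPM in the untreated mice and 67.4, 11.2 and 26.6 CPM after LPS (log2 fold change 3.29, SE 0.70, adjusted p = 0.00618). Jun was at 177, 288 and 197 CPM in the untreated mice and 283, 309 and 322 CPM after LPS (log2 fold change 0.46, SE 0.17, adjusted p = 0.0554). Egr1 was at 11.1, 12.9 and 19.3 CPM in the untreated mice and 136, 18.9 and 42.99 CPM after LPS (log2 fold change 2.19, SE 0.75, adjusted p = 0.0587). Ier3, Ier2, Fosl2 and Myc rose (4.85 ± 0.28 (SE), 3.40 ± 0.28 (SE), 2.31 ± 0.21 (SE) and 1.77 ± 0.20 (SE)), and Atf3 was the gene called lower (-1.11 ± 0.28 (SE)). Whether dissociation took part in these values was not tested.

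Metabolic genes of activated macrophages rose in part. Of 16 tested genes of itaconate, nitric oxide and arginine metabolism, 8 were called higher and 0 lower (median 1.84). Ass1 had no count before LPS and Acod1 4 counts, all in untreated mouse 9. Both had enough counts only through the LPS libraries and so had to differ, and nothing is read from this count. Acod1, the enzyme that makes itaconate, was at 0.549, 0 and 0 CPM in the untreated mice and 117, 14.5 and 97.2 CPM after LPS (log2 fold change 8.69, SE 1.47, adjusted p = 0.00449). Sod2, the mitochondrial superoxide dismutase, was at 33.5, 20.7 and 32.6 CPM in the untreated mice and 502, 61.1 and 205 CPM after LPS (log2 fold change 3.15, SE 0.70, adjusted p = 0.0123). Cybb, the catalytic subunit of the phagocyte NADPH oxidase, was at 16.6, 7.12 and 13.9 CPM in the untreated mice and 374, 62.2 and 253 CPM after LPS (log2 fold change 4.19, SE 0.70, adjusted p = 0.00352). The 3 genes were separated between the groups, with mouse 4 the lowest after LPS. Of 26 genes of glycolysis and HIF-1, 8 were called higher and 1 lower (median 0.72), with 5 called higher without mouse 1. Pfkfb3, which makes the allosteric activator of phosphofructokinase, was at 181, 215 and 157 CPM in the untreated mice and 2349, 593 and 787 CPM after LPS (log2 fold change 2.75, SE 0.48, adjusted p = 0.00312). Slc2a3, the neuronal-type glucose transporter, was at 7.69, 5.41 and 11.5 CPM in the untreated mice and 110.3, 105 and 86.5 CPM after LPS (log2 fold change 3.61, SE 0.25, adjusted p = 9.98e-07), and Ldha, lactate dehydrogenase A, at 124, 108 and 134 CPM in the untreated mice and 604, 215 and 335 CPM after LPS (log2 fold change 1.66, SE 0.33, adjusted p = 0.004). Hk3, a hexokinase of myeloid cells, was the gene called lower (log2 fold change -1.73, SE 0.16, adjusted p = 1.11e-05), and Hif1a itself did not pass (log2 fold change 0.49, SE 0.24, adjusted p = 0.137).

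Metal handling changed in defined genes. Of 11 metallothioneins and zinc transporters, 3 were called higher and 0 lower (median 0.52). Mt2, a metal-binding protein, was at 0.275, 0.264 and 0.580 CPM in the untreated mice and 61.8, 7.36 and 15.3 CPM after LPS (log2 fold change 6.16, SE 1.16, adjusted p = 0.004), Mt1 at 34.1, 24.8 and 20.6 CPM in the untreated mice and 299.8, 114 and 141 CPM after LPS (log2 fold change 2.81, SE 0.39, adjusted p = 0.000518), and Slc39a14, the zinc and iron importer ZIP14, at 25.7, 42.1 and 48.8 CPM in the untreated mice and 922, 206 and 388 CPM after LPS (log2 fold change 3.70, SE 0.54, adjusted p = 0.00137). Of 15 genes of iron and heme handling, 4 were called higher and 2 lower (median -0.01). Tfrc, the transferrin receptor that imports iron, was at 18.4, 11.9 and 22.4 CPM in the untreated mice and 219, 72.7 and 115 CPM after LPS (log2 fold change 2.95, SE 0.43, adjusted p = 0.000841). Slc40a1, which encodes the iron exporter ferroportin, was at 472, 590.7 and 572 CPM in the untreated mice and 50.1, 250.1 and 109 CPM after LPS (adjusted p = 0.014), and without mouse 6 its adjusted p was 0.0558. Fth1, the heavy chain of the iron store ferritin, was at 1003, 810.2 and 837 CPM in the untreated mice and 4684, 1665 and 2874 CPM after LPS (log2 fold change 1.799, SE 0.30, adjusted p = 0.00144). An importer and a storage gene thus rose while the exporter fell. Hmox1, heme oxygenase 1, was at 32.8, 45.4 and 41.2 CPM in the untreated mice and 99.6, 65.8 and 60.6 CPM after LPS (log2 fold change 0.92, SE 0.34, adjusted p = 0.0603), and Slc11a1, a metal exporter of phagosomes, did not pass (log2 fold change -0.010, SE 0.15, adjusted p = 0.967).

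Of 25 genes of sterol synthesis and LXR targets, 6 were called higher and 1 lower (median 0.26). Ch25h, which makes 25-hydroxycholesterol, was at 0.412, 0 and 0.116 CPM in the untreated mice and 151, 6.07 and 69.9 CPM after LPS (log2 fold change 8.67, SE 1.77, adjusted p = 0.0107). Mvd and Sqle, enzymes of cholesterol synthesis, had log2 fold changes of 1.61 ± 0.21 (SE) and 2.53 ± 0.41 (SE). Abca1, the cholesterol exporter, was at 426, 749.5 and 533 CPM in the untreated mice and 963, 815 and 683 CPM after LPS (log2 fold change 0.53, SE 0.21, adjusted p = 0.0812). Of 44 lysosomal genes, 4 were called higher (9.09%, against 8.97% of all genes) and 7 lower (15.9%, against 7.6%), and 12 more fell by less than 2-fold (median -0.44). Ctsc, which activates serine proteases of myeloid granules, was at 1289, 1355 and 1333 CPM in the untreated mice and 3486, 2392 and 2963 CPM after LPS (log2 fold change 1.15, SE 0.15, adjusted p = 0.000173). Ctsd, the aspartic protease cathepsin D, was at 11080, 8997 and 10035 CPM in the untreated mice and 2785, 5459 and 3683 CPM after LPS (log2 fold change -1.34, SE 0.21, adjusted p = 0.00062), and Hexa at 1210, 1045 and 1067 CPM in the untreated mice and 262, 426 and 303 CPM after LPS (log2 fold change -1.75, SE 0.18, adjusted p = 2.11e-05). Ctsb did not pass (log2 fold change -0.024, SE 0.14, adjusted p = 0.915). The number of lysosomal genes called lower was 4 without mouse 1 and 12 without mouse 4.

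Several receptors for microbial targets were at or near 0 at rest and present after LPS. Of 14 tested C-type lectin and pattern receptors, 9 were called higher and 0 lower (median 4.57 as fitted, 2.80 with genes at 0 set to their bound), and 6 were called higher without mouse 1. Of those called, 5 had no count before LPS, so they had enough counts only through the LPS libraries and had to differ. Nothing is read from this count and median. Trem1, an amplifier of Toll-like receptor signals on myeloid cells, had no count in the untreated libraries and was at 172, 90.4 and 94.4 CPM after LPS, at least 313-fold higher. Clec4e, the receptor Mincle, was at 9.93, 0.934 and 5.05 CPM after LPS and at 0 before, at least 14.2-fold higher. Clec4d, Clec4n and Trem3, also without a count before LPS, were at least 7.78-fold, 6.22-fold and 14.1-fold higher. Cd300lf, an inhibitory lipid receptor, was at 6.87, 2.64 and 1.28 CPM in the untreated mice and 780.3, 525 and 744 CPM after LPS (log2 fold change 7.59, SE 0.53, adjusted p = 1.31e-05). These receptors were thus at or near 0 at rest. Clec5a was at 264, 261 and 246 CPM in the untreated mice and 509, 234 and 409.6 CPM after LPS (log2 fold change 0.58, SE 0.24, adjusted p = 0.0863), and Clec7a, the beta-glucan receptor dectin-1, did not pass (log2 fold change -1.07, SE 0.41, adjusted p = 0.0709).

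Of 7 Fc receptor genes, 3 were called higher and 0 lower (median 0.68), with 1 without mouse 1. Fcgr2b, the inhibitory Fc gamma receptor, was at 432, 398 and 348 CPM in the untreated mice and 1006, 690.5 and 826 CPM after LPS (log2 fold change 1.10, SE 0.16, adjusted p = 0.000292), and Fcgr4, an activating one, at 21.7, 9.76 and 17.6 CPM in the untreated mice and 446, 189 and 234 CPM after LPS (log2 fold change 4.15, SE 0.37, adjusted p = 2.43e-05). Fcgr1 was at 304, 320.3 and 296 CPM in the untreated mice and 529, 228 and 415 CPM after LPS (log2 fold change 0.35, SE 0.24, adjusted p = 0.306). Of 16 complement genes, 4 were called higher and 0 lower (median 0.37). C4b, a C4 gene with a near-identical paralog, so that its value is uncertain to that extent, was at 11.7, 2.64 and 5.34 CPM in the untreated mice and 49.5, 100.3 and 50.9 CPM after LPS (log2 fold change 3.36, SE 0.54, adjusted p = 0.00149), and C3ar1, the receptor of C3a, at 604, 572 and 595 CPM in the untreated mice and 1854, 1176 and 1344 CPM after LPS (log2 fold change 1.30, SE 0.17, adjusted p = 0.000156). With C3 and C5ar1 given above these were the 4 called. Cfp, properdin, was at 0.824, 0.264 and 0.696 CPM in the untreated mice and 3.31, 0.467 and 3.03 CPM after LPS (log2 fold change 1.91, SE 0.85, adjusted p = 0.107).

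Efferocytosis and scavenger receptors were mixed, with 2 of 19 called higher (10.5%, against 8.97% of all genes) and 4 lower (21.1%, against 7.6%, median -0.32). Marco, 1 of the 2 called higher, had enough counts only through the LPS libraries and so had to differ. Nothing is read from the number called higher. Msr1, scavenger receptor A, was at 0.962, 2.51 and 1.39 CPM in the untreated mice and 2612, 487 and 1368 CPM after LPS (log2 fold change 9.83, SE 0.82, adjusted p = 9.81e-05). Marco, of the same class, had 1 count over the untreated libraries and 3560 over the LPS libraries, a ratio of 3115 (95% counting interval 559 to 123064). Both genes were near 0 at rest. Sirpa, the receptor of the don't-eat-me signal CD47, fell (log2 fold change -1.78, SE 0.18, adjusted p = 1.77e-05), but it belongs to the costimulatory and checkpoint list below and is not among the 4. Gas6, a ligand of Axl and Mertk, fell as well (log2 fold change -1.87, SE 0.27, adjusted p = 0.000421). Pros1, another ligand of these kinases, was at 907, 1032 and 1002 CPM in the untreated mice and 540.1, 739.9 and 606 CPM after LPS (log2 fold change -0.64, SE 0.14, adjusted p = 0.00484), and Mertk did not pass (log2 fold change -0.32, SE 0.15, adjusted p = 0.131).

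Of 25 costimulatory, checkpoint and SLAM family genes, 2 were called higher and 2 lower (median 0.04), a share of 8% in each direction, near the 8.97% and 7.6% of all genes. Without mouse 4, 4 were called higher, and 1 was called lower without mouse 1, 9 or 14. Cd86 was at 505, 439.7 and 512 CPM in the untreated mice and 553, 625 and 617 CPM after LPS (log2 fold change 0.30, SE 0.14, adjusted p = 0.122) and Cd40 at 3.98, 0.264 and 0.464 CPM in the untreated mice and 19.2, 0.934 and 8.08 CPM after LPS (log2 fold change 2.60, SE 1.12, adjusted p = 0.106). Cd40 passed without untreated mouse 9 (edgeR adjusted p = 0.0269) and with sex as a covariate (edgeR adjusted p = 0.0116). Of 19 inflammasome and pyroptosis genes, 4 were called higher (21.1%) and 0 lower (median -0.02), with 2 called higher without mouse 1 or 14. Nlrp3, the sensor of the NLRP3 inflammasome, was at 96.7, 97.3 and 73.2 CPM in the untreated mice and 258, 129.8 and 176 CPM after LPS (log2 fold change 1.08, SE 0.26, adjusted p = 0.00745). Casp4, the caspase that binds LPS in the cytosol, was at 20.6, 19.1 and 23.1 CPM in the untreated mice and 39.3, 37.2 and 51.9 CPM after LPS (log2 fold change 1.03, SE 0.22, adjusted p = 0.0041). Gsdmd, which forms the pyroptotic pore, was at 188, 181 and 209 CPM in the untreated mice and 198, 200 and 172 CPM after LPS (log2 fold change -0.018, SE 0.14, adjusted p = 0.937).

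Several genes of signals that maintain MG fell. Of 19 TGF-beta signalling genes, 1 was called higher and 4 lower (median -0.47). Tgfb1, the ligand, was at 345, 358 and 341 CPM in the untreated mice and 113, 168 and 141 CPM after LPS (log2 fold change -1.31, SE 0.17, adjusted p = 0.000156), and Tgfbr1, its receptor, at 3359, 3916 and 3873 CPM in the untreated mice and 908, 2631 and 1901 CPM after LPS (log2 fold change -1.03, SE 0.31, adjusted p = 0.0283), with an adjusted p of 0.0713 to 0.0747 for Tgfbr1 without mouse 6, 14 or 15. Smad3, which carries the signal to the nucleus, fell as well (log2 fold change -1.26, SE 0.22, adjusted p = 0.00122). Of 7 genes of colony-stimulating factor receptors and ligands, 2 were called higher and 1 lower (median 0.30). Csf2rb, the shared beta chain of receptors for GM-CSF, interleukin-3 and interleukin-5, was at 128, 121 and 115 CPM in the untreated mice and 450.5, 421 and 484 CPM after LPS (log2 fold change 1.90, SE 0.13, adjusted p = 9.98e-07), whereas Csf3r, the receptor of G-CSF, fell (log2 fold change -1.02, SE 0.29, adjusted p = 0.0216).

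Of 17 purinergic and adenosine genes, 5 were called higher and 4 lower (median 0.35). Among those called higher, Adora2a, Adora2b and Cd38 had no count before LPS. These 3 had enough counts only through the LPS libraries and so had to differ, and nothing is read from this count. Adora2a, an adenosine receptor that drives process retraction in activated MG, had no count before LPS and was at 4.16, 0.584 and 5.16 CPM after it, at least 8.75-fold higher. P2ry2, a receptor of ATP and UTP, was at 2.75, 2.11 and 1.28 CPM in the untreated mice and 52.1, 27.8 and 39.2 CPM after LPS (log2 fold change 4.29, SE 0.44, adjusted p = 2.58e-05). Entpd1, the ectonucleotidase CD39, was at 1210, 1232 and 1252 CPM in the untreated mice and 141, 600.2 and 323 CPM after LPS (log2 fold change -1.797, SE 0.42, adjusted p = 0.0114), and Cd38, an enzyme that consumes NAD, was at 0 before LPS and at least 17.6-fold higher after it. P2rx7, an ATP-gated channel, fell by less than 2-fold (log2 fold change -0.78, SE 0.20, adjusted p = 0.00957), while P2rx4 (log2 fold change 0.35, SE 0.16, adjusted p = 0.12) and Adora3 (log2 fold change 0.14, SE 0.14, adjusted p = 0.486) did not pass. Among members with counts in both groups, P2ry2 thus rose while Entpd1 and P2rx7 fell.

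Of 20 prostaglandin and leukotriene genes, 2 were called higher (10%, against 8.97% of all genes) and 4 lower (20%, against 7.6%, median 0.02). Ptges, the inducible prostaglandin E synthase, had 1 count over the untreated libraries and 364 over the LPS libraries, a ratio of 318 (95% counting interval 56.8 to 12614). Ptges thus had enough counts only through the LPS libraries and had to differ, and nothing is read from the number called higher. Ptgs2, the inducible cyclooxygenase, was at 0.275, 0 and 0 CPM in the untreated mice and 4.06, 0.117 and 1.91 CPM after LPS (log2 fold change 4.34, SE 1.73, adjusted p = 0.0762), and Ptgs1, the constitutive form, at 1489, 1332 and 1523 CPM in the untreated mice and 690.2, 1238 and 1138 CPM after LPS (log2 fold change -0.50, SE 0.19, adjusted p = 0.0621). Hpgd, which degrades prostaglandins, was at 532, 717 and 675 CPM in the untreated mice and 39.7, 138 and 87.4 CPM after LPS (log2 fold change -2.86, SE 0.39, adjusted p = 0.00059), and Tbxas1, thromboxane synthase, and Hpgds, prostaglandin D synthase, fell too (-1.76 ± 0.25 (SE) and -1.49 ± 0.22 (SE)). Alox5ap did not pass (log2 fold change -0.12, SE 0.27, adjusted p = 0.771).

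Of 28 integrin, adhesion and matrix enzyme genes, 9 were called higher and 5 lower (median 0.20). Cd44, the hyaluronan receptor, was at 0.687, 0.396 and 3.71 CPM in the untreated mice and 56.8, 9.93 and 15.8 CPM after LPS (log2 fold change 4.04, SE 0.85, adjusted p = 0.00747), and Mmp14, a membrane-bound matrix metalloproteinase, at 53.6, 50.1 and 59.3 CPM in the untreated mice and 353, 105 and 256 CPM after LPS (log2 fold change 2.13, SE 0.38, adjusted p = 0.00254). Itgal, the alpha chain of LFA-1, was at 0.137, 0 and 0.464 CPM in the untreated mice and 28.5, 9.46 and 20.5 CPM after LPS (log2 fold change 6.43, SE 0.66, adjusted p = 3.38e-05). Vcam1 rose and Mmp2 fell (3.07 ± 0.65 (SE) and -2.20 ± 0.28 (SE)). Icam1 was at 176, 175 and 193 CPM in the untreated mice and 373, 149.8 and 273 CPM after LPS (log2 fold change 0.55, SE 0.30, adjusted p = 0.186).

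General cell functions gave the following counts. Of 24 chaperone genes, 2 were called higher and 2 lower (8.33% each, near the 8.97% and 7.6% of all genes, median -0.02). The inducible Hsp70 genes Hspa1a and Hspa1b were called lower (-3.25 ± 0.92 (SE) and -4.09 ± 0.78 (SE)), and Hspa5 and Hsp90ab1 did not pass (adjusted p = 0.804 and 0.383). Hspa1a and Hspa1b are near-identical copies, so that their reads cannot be cleanly divided. Of 34 cell cycle genes, 3 were called higher and 0 lower (median 0.44), a share of 8.82% called higher, near the 8.97% of all genes. Mki67, a proliferation marker, was at 1.65, 1.58 and 4.99 CPM in the untreated mice and 3.42, 1.28 and 0.112 CPM after LPS (log2 fold change -0.77, SE 0.95, adjusted p = 0.58), whereas Cdkn1a, the inhibitor p21, was at 11.3, 15.96 and 13.9 CPM in the untreated mice and 94.8, 48.2 and 56.7 CPM after LPS (log2 fold change 2.28, SE 0.27, adjusted p = 7.32e-05). Ccnd2 and Mcm2 also rose (4.51 ± 0.54 (SE) and 1.06 ± 0.28 (SE)). Of 21 apoptosis regulators, 5 were called higher and 0 lower (median 0.34), among them the survival genes Mcl1 and Bcl2a1d (1.20 ± 0.13 (SE) and 3.04 ± 0.53 (SE)), the latter with near-identical paralogs that can share its reads.

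Of 80 tested genes of the cytosolic ribosome, 36 were called higher, 27 more rose by less than 2-fold and 0 were called lower, with a median of 0.97. This count was 15 without mouse 1, 54 without mouse 4 and 2 in the fit of all 18 WT libraries. The fold change over the 36 genes, as a median per mouse, was 1.55 in mouse 1, 0.65 in mouse 4 and 1.18 in mouse 6. Of 89 nuclear-encoded respiratory chain genes, 0 were called (4 higher without mouse 4), although 12 rose and 1 fell by less than 2-fold (median 0.27). Reads of both classes can be shared with pseudogenes.

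The size of the response differed between the 3 LPS mice in a repeated order. Mouse 1 was the highest LPS library for 770 of the 1057 genes called higher, and mouse 4 the lowest for 751. Mouse 1 was also the only female of the LPS group (Xist at 415 CPM, Ddx3y at 0), so its place in this order and its sex cannot be told apart. Over genes called lower, mouse 4 was the highest for 646 of 896. The median log2 change of the genes called higher, each mouse set against the mean of the untreated libraries on log2 CPM with a prior count of 2, was 1.98 in mouse 1, 1.25 in mouse 4 and 1.62 in mouse 6. For the called acute phase genes it was 5.70, 2.16 and 3.69, for chemokines 4.97, 2.35 and 4.61, and for interferon-stimulated genes 3.20, 1.67 and 2.29. Called glucocorticoid-responsive genes did not follow that order, with medians of 5.59 in mouse 1, 6.12 in mouse 4 and 4.98 in mouse 6. Complement genes lay at 2.78, 2.84 and 2.80, and called cytokines, at 4.53, 2.48 and 4.59, were highest in mouse 6. Mouse 4 was not nearest to 0 for called higher genes of MHC class II (1.54, 1.39 and 1.25), identity transcription factors (2.30, 1.92 and 1.73) and Fc receptors (2.20, 1.15 and 1.08), nor for homeostatic genes called lower (-2.64, -1.73 and -1.67) and adhesion genes called lower (-2.11, -1.90 and -1.83). Which genes were called was chosen on these libraries, so these medians are descriptions without a test. In other lists, leaving out mouse 4 gave 6 TGF-beta, 7 prostaglandin and 8 adhesion genes called lower, leaving out mouse 1 gave 6 cell cycle genes and 0 chaperone genes called higher, and leaving out mouse 6 or 14 gave 3 apoptosis regulators called higher. Without untreated mouse 14, 2 guanylate-binding and GTPase genes, 3 interferon regulatory factor, STAT and JAK genes and 2 iron-handling genes were called higher, and 3 LPS-sensing genes were called lower. The number of genes called was 1497 without mouse 1 and 2571 without mouse 4, and without mouse 4 the genes Gbp5, Egr1, Hif1a, Cfp, Fcgr1, Clec5a, Cd40, Ptgs2 and Icam1, which had not passed, had adjusted p of 0.00117 to 0.0311.

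**Figure D4:**
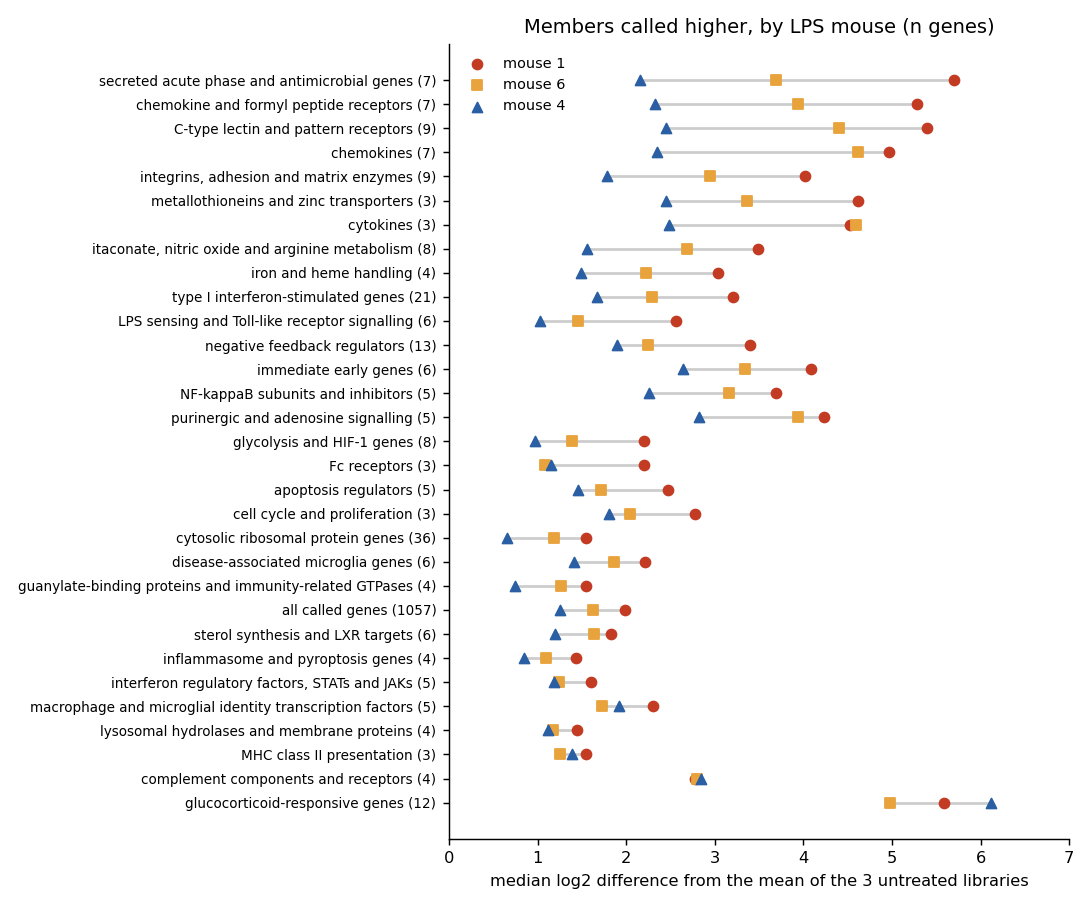
Median log2 difference of the genes called higher in each list, LPS mice 1, 4 and 6 of WT MG against the mean of the untreated libraries (x axis), 1 row per list and 1 point per mouse. Mouse 4 lies nearest to 0 for most lists but not, for example, for glucocorticoid-responsive genes, where its median is 6.12 against 5.59 and 4.98.

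The same treatment was compared in MG of Ccr2-/- mice, in which the chemokine receptor that monocytes need to leave the bone marrow is missing, by a difference of responses over all 18 MG libraries of the 2 genotypes. Those groups held other mice, 3 untreated and 3 given vehicle and LPS, so no library was shared. Of 12423 genes tested, 0 (0%) had a response that differed between WT and Ccr2-/- MG by edgeR, 490 at an unadjusted p under 0.05, and DESeq2 called 1, S100a8, a gene without counts in any untreated WT library. One gene was called without the untreated Ccr2-/- library 3m and 31 when no low-count filter was used. Among the 1953 genes called in WT MG, 1936 (99.1%) had the same sign in Ccr2-/- MG, against 81.5% of all genes, and 1567 (80.2%) were called there too. Of the 2414 genes called in Ccr2-/- MG, 64.9% were called in WT MG.

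These values leave room for differences of moderate size. The SE of the difference had a median of 0.46 over the called genes, with quartiles of 0.34 and 0.75. Fkbp5 had log2 fold changes of 3.62 in WT and 3.75 in Ccr2-/- MG, a difference of -0.13 with a 95% interval of -0.47 to 0.21. P2ry12 had -3.23 in WT and -3.25 in Ccr2-/- MG, a difference of 0.017 with an interval of -0.70 to 0.74. Irf7 had 2.50 and 3.76, and its difference of -1.26 (interval -2.20 to -0.33) did not pass the test over all genes (edgeR adjusted p = 1). Of the 46 interferon-stimulated genes, 23 were called higher in WT and 39 in Ccr2-/- MG in this fit, with medians of 1.01 and 1.89, yet no member's difference passed the test. Glucocorticoid-responsive genes had medians of 3.03 and 3.61, and homeostatic genes of -1.04 and -1.19.

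**Figure D5:**
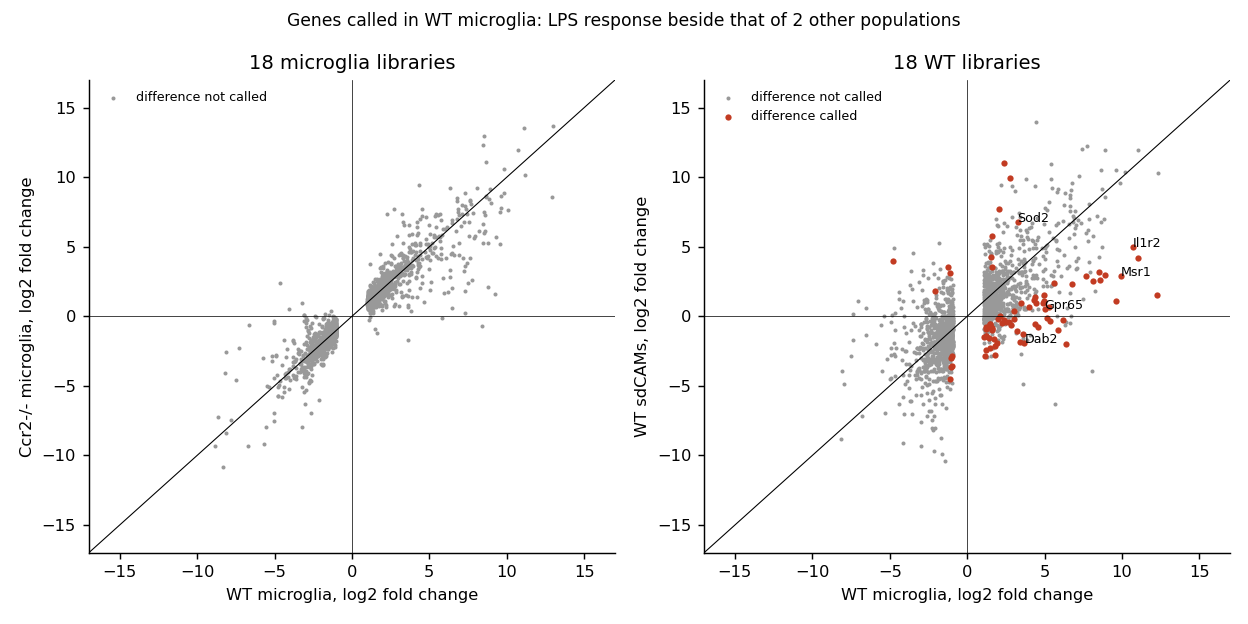
Log2 fold changes with LPS in Ccr2-/- MG and in WT sdCAMs (y axes) against those of WT MG (x axes), each point 1 gene called in WT MG, coloured where its difference between cell types was called, with a line at equal values. In Ccr2-/- MG 1936 of 1953 genes have the sign they have in WT MG, and the wider scatter for sdCAMs includes genes that move in opposite directions.

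In sdCAMs, the macrophages of the leptomeninges and perivascular spaces, sorted from the same WT mice, the response was set against that of MG by a difference of responses over 18 WT libraries. It differed for 192 of 13136 genes (1.46%), with the log2 fold change of MG minus that of sdCAMs positive for 124 and negative for 68. The sdCAM libraries were shallower and more scattered. The biological coefficient of variation was 0.57 in this fit and 0.271 in that of MG of both genotypes. Among the 192, Pfn1 and Gpx4 reached 6302 ± 4324 and 472 ± 399.5 CPM (mean ± SD, n = 3) in sdCAMs after LPS. The part of sdCAM library quality or composition in these differences was not tested. With the mouse as a replicate block 89 genes were called, of which 83 were among the 192, Dab2, Stab1, Sh3pxd2b and Gpr65 included. Left out in turn, MG of mouse 1, 4, 6, 9, 14 or 15 gave 118, 73, 64, 60, 67 and 56 calls, sdCAMs of mouse 6 or 14 gave 112 and 119, and the other sdCAM libraries 138 to 281. Of the 1951 genes called in MG alone that could be tested here, 77 differed.

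Several genes with the smallest p in that test were higher in sdCAMs than in MG at rest and rose in MG. Dab2, an endocytic adaptor, rose in MG from 22.8 ± 3.01 to 294.5 ± 163 CPM (mean ± SD, n = 3) and fell in sdCAMs from 2377 ± 405.7 to 633 ± 164 CPM, a difference of 5.60 ± 0.58 (SE, edgeR adjusted p = 6.48e-05). Stab1 went from 428 ± 15.4 to 804 ± 97 CPM in MG and from 1770 ± 296 to 413 ± 105 CPM in sdCAMs, a difference of 3.01 ± 0.42 (edgeR adjusted p = 0.000983). Sh3pxd2b rose in MG from 1.04 ± 0.44 to 41.01 ± 5.09 CPM but was at 49.1 ± 9.41 and 79.8 ± 21.1 CPM in sdCAMs. Gpr65 followed the same pattern, with 5.92 ± 1.19 and 189 ± 55.5 CPM in MG and 99.1 ± 41.8 and 144 ± 47.2 CPM in sdCAMs. Dab2 and Stab1 are named after their values were seen. Levels here were scaled over the 18 libraries and so differ from those above. Homeostatic genes had medians of -0.98 in MG and -2.04 in sdCAMs, and glucocorticoid-responsive genes of 3.07 and 1.99, with 3 members whose difference was called.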

How the data were processed

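RNA of sorted MG was measured by bulk RNA-seq, 1 library per mouse. Per the submitters' processing notes and the methods, cDNA was amplified by PCR from picogram amounts of RNA without molecular identifiers, single reads were aligned with STAR 2.7.11a and counted per gene with featureCounts 2.0.8. The values deposited by the authors were whole-number counts per gene symbol, without normalization, for 33280 genes. The genome build was given ambiguously and the strand setting was not given in the sources used here, so overlapping genes on opposite strands are uncertain and no gene coordinates were taken from the files. Each column was matched to a library by its name, and 0 were left unmatched.

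Counts were filtered with filterByExpr, scaled by TMM and tested two-sided by robust quasi-likelihood in edgeR 4.0.16 (R 4.3.3). The model spanned the 9 WT MG libraries, including 3 of BLZ945-treated mice, and p-values of all tested genes were adjusted by Benjamini-Hochberg. Differences of responses were interaction terms over 18 libraries, either WT and Ccr2-/- MG or MG and sdCAMs of WT mice. Intervals of such differences are 95% and rest on the SE and 12 residual degrees of freedom. Same-numbered MG and sdCAMs came from the same mouse and are therefore paired. Their deviations from the group means correlated by 0.0056 to 0.13. Untreated and LPS mice of the main comparison were different animals.

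Named genes were key members of 39 gene lists, other members with their fold change, and the 10 genes called in each direction with the smallest p at a mean of at least 10 CPM, no overlap and no predicted or clone name. Lists, members and comparisons were chosen with earlier results of these data known, so no list was tested. The labels give every library used here the same batch number, so no batch term was fitted, and the study's batch correction was not repeated. P-values measure the spread between these mice, and counting intervals and floors of 3 counts per library cover counting error only. A fold against a group without counts is a lower bound. Alternatives were DESeq2 1.42.0, its size factors, other low-count rules, no fold limit, omission of gene classes the study removed, other sets of libraries in the fit, sex as a covariate, the mouse as a block, each library left out and, added after seeing the data, the fit without robust. The test was checked on simulated counts. Promoters were taken from RefSeq (GRCm38.p6).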

Additional observations from a re-analysis of the deposited data

Results flagged for a closer look

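For 13 of the named genes the response to LPS differed between MG and sdCAMs of WT mice by the interaction test over 18 libraries. The difference is the log2 fold change of MG minus that of sdCAMs. In 12 of them it was positive, with 4.56 for Sh3pxd2b, 4.45 for Gpr65, 7.01 for Msr1, 3.89 for Sema6b, 2.65 for Ctsc, 3.26 for Tfrc, 2.698 for Cd74, 2.85 for Abca1, 3.08 for Ccr1, 6.90 for Fpr1, 5.76 for Il1r2 and 3.12 for Cybb. In Sod2, the mitochondrial superoxide dismutase, it was -3.49, with 20.1 ± 5.09 CPM before and 192.3 ± 174.5 CPM after LPS in MG (mean ± SD, n = 3) against 32.4 ± 9.79 and 3482 ± 1253 CPM in sdCAMs (edgeR adjusted p = 0.0331). With the mouse as a replicate block, 9 of the 13 were still called. Those not called were Cd74 (2.69, adjusted p = 0.0523), Fpr1 (5.79, adjusted p = 0.14), Il1r2 (5.09, adjusted p = 0.12) and Sod2 (-3.96, adjusted p = 0.0801), by edgeR.

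The 12 positive differences arose in different ways. Ctsc rose in MG and fell in sdCAMs, with log2 fold changes of 1.24 and -1.42 in this fit. Abca1 fell in sdCAMs (-2.24, edgeR adjusted p = 0.00119) and did not pass in MG (0.61). Msr1, Fpr1 and Il1r2 rose in both cell types, by 9.93, 11.05 and 10.72 in MG and by 2.92, 4.15 and 4.96 in sdCAMs, with untreated levels in MG of 1.12, 0.0272 and 0.112 CPM. For Tfrc, Cd74, Ccr1, Cybb, Gpr65, Sema6b and Sh3pxd2b, the change in MG passed and that in sdCAMs did not.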

How the results depend on the processing

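The 1953 calls in WT MG became 3632 (1962 higher, 1670 lower) without the fold limit and 563 (428 higher, 135 lower) when all 18 WT libraries shared the fit, whose scatter was larger. Under the other alternatives the count was 1740 to 2189, with 1972 in the fit without robust, which was chosen after seeing the data, and 2131 by DESeq2, which shared 1941 of the 1953. Leaving out each library in turn gave 1497 to 2571 calls.

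No paired analysis was possible for the main comparison because untreated and LPS libraries came from different mice. For the difference between MG and sdCAMs, the mouse as a replicate block gave 89 calls instead of 192, DESeq2 867, no low-count filter 838, only the 12 libraries compared 613, and each library left out 56 to 281. The difference between WT and Ccr2-/- MG gave 1 call by DESeq2, 31 without a low-count filter, and 0 to 1 with each library left out.

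Of the 142 named genes, 14 changed sign in some fit, and none of these 14 had passed. DESeq2 and its size factors each gave -0.003 for Spi1. The fit of 18 WT libraries gave 0.087 for Axl, 0.075 for Slc11a1, 0.059 for Ctsb and 0.060 for Gsdmd. Axl was 0.004 without the gene classes the study removed and 0.038 with sex as a covariate. With each library left out in turn, log2 fold changes were -0.424 to 0.404 for Ifit3, -0.813 to 0.233 for H2-Aa, -0.730 to 0.470 for H2-Ab1, -0.221 to 0.057 for Apoe, -0.246 to 0.469 for Axl, -0.106 to 0.060 for Ctsb, -0.111 to 0.132 for Spi1, -0.131 to 0.098 for Slc11a1, -0.702 to 0.686 for Top2a, -0.061 to 0.050 for Gsdmd, -0.902 to 0.039 for Bhlhe41, -0.438 to 0.149 for Alox5ap, -0.105 to 0.147 for Hspa5 and -0.040 to 0.694 for Hsp90ab1. In the fit of 18 WT libraries, 31 named genes no longer passed. The cause of these shifts was not tested. With 150 instead of 250 bases before the start, the share of promoters with a match was 2.97% for NF-kappaB, 4.47% for the interferon element and 4.48% for STAT. Of 33280 genes, 11789 had enough counts to be tested at this depth.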
